A study of Mus musculus with 9 samples.

Results

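The 37 genes described here encode nucleolar proteins that make ribosomes, and they were chosen by name, as a list of gene symbols, from a table of 46078 genes measured in mouse pancreas. All 37 were found, and all 37 passed the minimum mean of 10 normalized counts that 11953 genes of the table passed. By role they comprise 4 genes of RNA polymerase I transcription, 9 genes of the small nucleolar ribonucleoproteins (snoRNPs), 12 genes of the small-subunit processome and 40S assembly, 9 genes of 60S assembly and 3 genes of multifunctional nucleolar proteins. The study compared whole pancreas of 8-week-old mice in 3 groups of 3 animals: WT littermates, animals carrying a Snd1 knock-in (Snd1_KI) and animals carrying the RK allele of S6k2 (S6k2_RK). SND1 is a Tudor-domain protein that recognises methylated arginine. S6K2, the product of Rps6kb2, is a ribosomal S6 kinase downstream of mTOR. The title of the study links both, through recognition of methylated S6K2 by the SND1 Tudor domain. Base changes of both alleles, zygosity, sex and strain background are not given in the sources used here, and no agent or Cre driver is named for any group. Whole-organ tissue holds every cell type of the pancreas.

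Ribosomes are built in the nucleolus. RNA polymerase I transcribes a long precursor RNA, and snoRNPs guide its methylation and pseudouridylation. The small-subunit processome folds and cuts the part of this RNA that becomes the 40S subunit, and a further set of factors assembles the 60S subunit. The pathway is known as a target of mTOR signalling and of MYC, and in mouse liver S6 kinases have been linked to the transcription of ribosome biogenesis genes. Acinar cells, which fill most of the exocrine pancreas, are known for a very high rate of protein synthesis and so for a large stock of ribosomes.

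Polyadenylated RNA was sequenced, and the values are read counts that the authors divided by 1 size factor per library, called normalized counts below. The libraries held 13461427 to 21034501 reads on genes, of which 6390 to 10004 fell on the 37 nucleolar genes. Reads were found for 16724 to 17115 genes in WT, for 16016 to 16486 in Snd1_KI and for 15266 to 15928 in S6k2_RK. Of the marker lists, that of acinar cells was by far the most abundant in every group. Its 14 genes summed to 6702579 to 7035132 normalized counts in WT, to 8528996 to 9121139 in Snd1_KI and to 9333576 to 11427965 in S6k2_RK. Single acinar markers went both ways: limma called 1 of 14 lower in Snd1_KI, and 4 higher and 1 lower in S6k2_RK. T-cell markers summed to 367 to 1060 in WT, 44.1 to 91.8 in Snd1_KI and 40.8 to 48.3 in S6k2_RK, where Trac was at 0 in every library; 13 of 13 tested T-cell markers were lower in each mutant. The part of these cell-type differences in the values below was not tested. In ground tissue, fewer cells of a type and less RNA per cell cannot be told apart. Over WT, Snd1_KI and S6k2_RK in that order, Snd1 itself measured 1993 ± 162, 2903 ± 244 and 2801 ± 433 and Rps6kb2 57.9 ± 6.83, 43.8 ± 8.24 and 35.4 ± 17.8 (SD, n = 3); a changed codon need not change a transcript's level, so neither value checks the labels.

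Per kb of coding sequence, the nucleolar genes of WT pancreas spanned more than 2 orders of magnitude. Levels of different genes were compared as normalized counts per kb of the longest annotated coding sequence, and since reads of untranslated ends are in the counts, genes with long ends look higher on this scale. Npm1, which encodes nucleophosmin, an abundant histone and ribosome chaperone, was highest with 1413 ± 94.5 per kb (SD, n = 3). Nop10, a small protein of the pseudouridylation snoRNPs, followed with 866 ± 48.9 and Ncl, which encodes nucleolin, an RNA-binding protein of the dense nucleolar interior, with 641 ± 27.6. These 3 did not overlap within 1 SD of one another. At the other end, Utp20, a very large scaffold protein of the processome, had 9.20 ± 1.76 per kb, below Polr1b, the second largest subunit of RNA polymerase I, with 16.6 ± 2.19. Polr1b, Heatr1 (16.7 ± 4.50) and Rrp12 (16.9 ± 3.08) were within 1 SD of one another. The median of the 37 was 87.1 per kb, against 62.5 per kb over 11638 tested genes with a coding length, and 20 of the 37 lay above that median. Nucleophosmin, nucleolin and the polymerase I factor UBF (Ubtf) together took 38.8% to 47.9% of all normalized counts of the 37 genes, depending on the library.

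**Figure D1:**
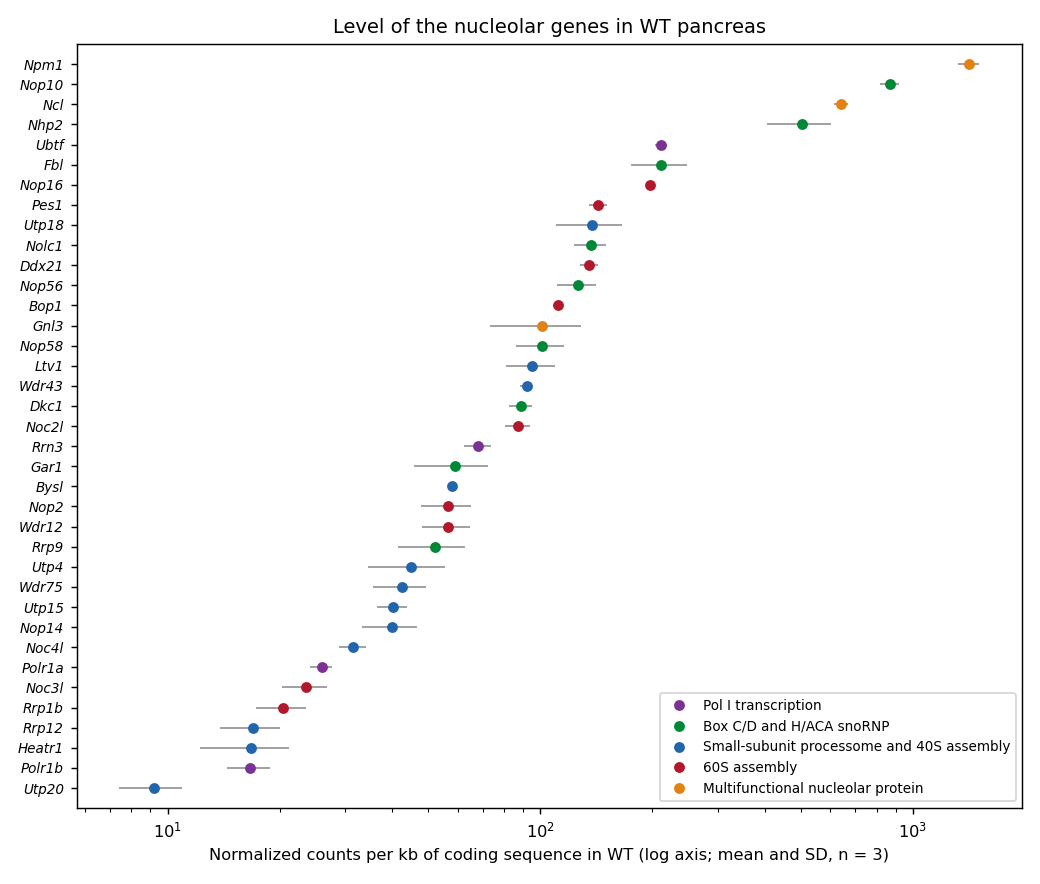
Level of each of the 37 genes in WT pancreas, in normalized counts per kb of coding sequence on a log axis; points are means, lines are SD (n = 3), and colours give the role. Npm1 stands highest at 1413 and Utp20 lowest at 9.20. The roles overlap along the axis, with no small-subunit gene above Utp18 at 138 and no multifunctional gene below Gnl3 at 101.

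The order of the levels followed the roles only loosely. Among the polymerase I genes, Ubtf (211 ± 7.74 per kb), which bends ribosomal DNA for transcription, and Rrn3 (68.0 ± 5.69), the initiation factor that growth signals regulate, stood above the 2 largest polymerase subunits, Polr1a (25.9 ± 1.74) and Polr1b. The snoRNP genes ran from Nop10 and Nhp2 (505 ± 98.2), both of the pseudouridylation particle, through the methyltransferase Fbl (211 ± 36.2), the snoRNP-associated protein Nolc1 (137 ± 13.6), the methylation scaffolds Nop56 (126 ± 15.4) and Nop58 (101 ± 14.95) and the pseudouridine synthase Dkc1 (88.8 ± 6.26), to Gar1 (59.1 ± 13.2) and the U3 protein Rrp9 (52.1 ± 10.6). Nop10, Nhp2, Dkc1 and Gar1 sit together in the pseudouridylation particle and differed over more than 10-fold per kb. That range rests partly on the divisor, since the coding sequence of Nop10 has only 192 bases. Before division by length, the WT means were 166 normalized counts for Nop10, 232 for Nhp2, 136 for Dkc1 and 41.0 for Gar1. Small-subunit factors ran from Utp18 (138 ± 27.4) through Ltv1 (95.03 ± 14.2), a 40S maturation factor,, Wdr43 (92.0 ± 3.84), Bysl (57.9 ± 1.28), Utp4 (44.9 ± 10.5), Wdr75 (42.5 ± 6.89), Utp15 (40.2 ± 3.73), Nop14 (40.0 ± 6.797) and Noc4l (31.5 ± 2.64) to the large proteins already named. The 60S factors ran from Nop16 (197 ± 1.82) through Pes1 (143 ± 7.78), the helicase Ddx21 (135 ± 7.65), Bop1 (112 ± 3.70), Noc2l (87.1 ± 6.57), the rRNA methyltransferase Nop2 (56.6 ± 8.78), Wdr12 (56.4 ± 8.20) and Noc3l (23.5 ± 3.29) to Rrp1b (20.4 ± 3.15). Pes1, Bop1 and Wdr12 form the PeBoW complex of 60S assembly, in which Wdr12 was lowest. Gnl3, which encodes the nucleolar GTPase nucleostemin, had 101 ± 27.7.

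Genes of this kind are known to carry snoRNAs inside introns, so that 1 transcript can yield both a nucleolar protein and a guide RNA. In GENCODE M21 on GRCm38, 6 of the 37 (16.2%: Ncl, Nop56, Nop58, Dkc1, Wdr43 and Gnl3) hold 19 annotated snoRNA genes within their bounds. Of all tested protein-coding genes, 197 of 11618 (1.70%) hold any. The count took snoRNA genes on the same strand between the start and end of a gene, without telling introns from exons. Box C/D snoRNAs, the kind that guides methylation by fibrillarin, are recognised by a C box near the 5′ end and a D box near the 3′ end. One is shown for nucleolin and one for each of the 2 scaffold proteins of the same particle, 5′ to 3′, with the C box (TGATGA) and the D box (CTGA) in capitals. Snord82 lies at chr1:86356261-86356330 on the minus strand in Ncl, Snord110 at chr2:130275506-130275573 on the plus strand in Nop56, and Snord11 at chr1:59704790-59704873 on the plus strand in Nop58.
Snord82: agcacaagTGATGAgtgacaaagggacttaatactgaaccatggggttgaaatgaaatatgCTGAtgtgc
Snord110: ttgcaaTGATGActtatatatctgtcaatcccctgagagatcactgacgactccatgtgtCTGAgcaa
Snord11: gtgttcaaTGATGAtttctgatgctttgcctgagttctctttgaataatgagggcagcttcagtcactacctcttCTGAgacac
Of the 19 snoRNA genes, 18 have a row in the table, 13 of these had no read in any library, and all together they held 13 reads. Selection for polyadenylated RNA leaves out most snoRNAs, so the host genes' values below are those of the messenger RNAs.

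In Snd1_KI pancreas none of the 37 genes passed the test against WT. The clearest differences, chosen after their values were seen, were nucleolin and UBF, both higher, and Nop10, lower. Their log2 fold changes were 0.33 ± 0.10 for Ncl, 0.27 ± 0.10 for Ubtf and -0.36 ± 0.16 for Nop10 (± SE), with adjusted p of 0.0782, 0.136 and 0.199 (limma, Benjamini-Hochberg over 11953 genes). At equal library totals, where the median of all genes moved to -0.28, these became 0.04 for Ncl, -0.011 for Ubtf and -0.64 for Nop10, with adjusted p of 0.835, 0.960 and 0.00991 (limma). These 3 were also all that passed an unadjusted p of 0.05 in limma, while edgeR found 4 and DESeq2 3 at that level and neither called any after adjustment. Of all genes tested, 5.61% were called in this comparison (2.40% higher and 3.20% lower), and 20.1% passed the unadjusted threshold.

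Nucleolin measured 1423, 1309 and 1344 normalized counts in the 3 WT libraries and 1718, 1570 and 1827 in the 3 Snd1_KI libraries. Every Snd1_KI library was above every WT library. UBF measured 477, 504 and 471 in WT and 594, 592 and 571 in Snd1_KI, again without overlap. Pes1, the pescadillo protein of the PeBoW complex, was 267, 240 and 252 in WT and 304, 282 and 272 in Snd1_KI. Nop10 fell on the other side, with 160, 162 and 177 in WT and 121, 145 and 122.98 in Snd1_KI. Its partner Nhp2 was 215, 283 and 198 in WT and 195, 186 and 190 in Snd1_KI, below WT in all 3 libraries. Those 5 genes were all whose groups did not overlap, 3 higher and 2 lower, where 27.1% of all genes tested did not overlap (14.1% higher and 13.0% lower).

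The median log2 difference of the 37 was -0.05, against 0.003 over all genes tested, and 27 of the 37 differences were below 0, against 49.7% of all genes. By role the medians were 0.06 for polymerase I, -0.12 for the snoRNPs (8 of 9 below 0), -0.05 for the small-subunit factors (8 of 12 below 0) and -0.05 for the 60S factors (7 of 9 below 0). That of the multifunctional proteins was -0.10 (2 of 3 below 0). The log2 differences ran from -0.36 to 0.40, and the widest 95% interval reached 1.06. For 35 of the 37 the 95% interval stayed within a 2-fold change either way, and for 25 within 1.5-fold.

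In S6k2_RK pancreas 1 of the 37 genes was called against WT, nucleolin, which was higher, and none was called lower. Of all genes tested, 12.0% were called (5.20% higher and 6.83% lower). Nucleolin measured 1588, 1946 and 1615 normalized counts in the S6k2_RK libraries, all above the highest WT library at 1423, with a log2 fold change of 0.33 ± 0.10 and an adjusted p of 0.0452 (limma). The call was close to the threshold: the adjusted p was 0.0814 in edgeR and 0.0407 in DESeq2 on the recovered reads, and leaving out any 1 library other than S6k2_RK replicate 1 ended it, with adjusted p of 0.0557 to 0.182. At equal library totals the log2 difference of Ncl turned to -0.19. Both mutants were compared with the same 3 WT libraries, so their rises of nucleolin are not independent of each other.

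Of the other genes, 4 passed an unadjusted p of 0.05 and are named after their values were seen; with Ncl that makes 5 of 37, against 27.0% of all genes tested (13.4% higher and 13.6% lower). edgeR counted 4 and DESeq2 3 at that level. UBF measured 650, 560 and 600 in S6k2_RK, above all WT libraries, with a log2 difference of 0.31 ± 0.10 and an adjusted p of 0.0554 (limma). Nucleophosmin measured 1216, 1330 and 1168 in WT and 1428, 1448 and 1432 in S6k2_RK. Its groups did not overlap, and its difference was 0.22 ± 0.09 on the log2 scale with an adjusted p of 0.144 (limma). At equal library totals the differences of both turned below 0, to -0.21 for Ubtf and -0.30 for Npm1. Mouse Npm1 has processed pseudogenes, and how reads that match several places were assigned is not given in the sources used here, so its level is uncertain by what such copies add or remove.

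Rrp1b, a nucleolar protein of 60S assembly, measured 41.0, 39.6 and 52.1 in WT and 24.99, 34.9 and 29.7 in S6k2_RK. Its log2 difference was -0.55 ± 0.24 with an adjusted p of 0.146 (limma). It was -0.43 without WT replicate 3, the library at 52.1, and -0.44 without S6k2_RK replicate 1 (adjusted p of 0.337 and 0.270, limma). Rrp9, a protein specific to the U3 snoRNP, measured 68.1, 63.1 and 91.5 in WT and 49.98, 57.7 and 53.2 in S6k2_RK, with a difference of -0.44 ± 0.21 and an adjusted p of 0.171 (limma). Without WT replicate 3, the library at 91.5, that difference was -0.29 (adjusted p = 0.444, limma). At equal library totals, where the median of all genes moved to -0.51, Rrp1b was at -1.06 and Rrp9 at -0.96, with adjusted p of 0.00314 and 0.00239 (limma). Both sat below every WT library. With Ncl, Ubtf and Npm1 they make 5 genes whose groups did not overlap, where 28.3% of all genes tested did not overlap (14.7% higher and 13.6% lower).

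**Figure D2:**
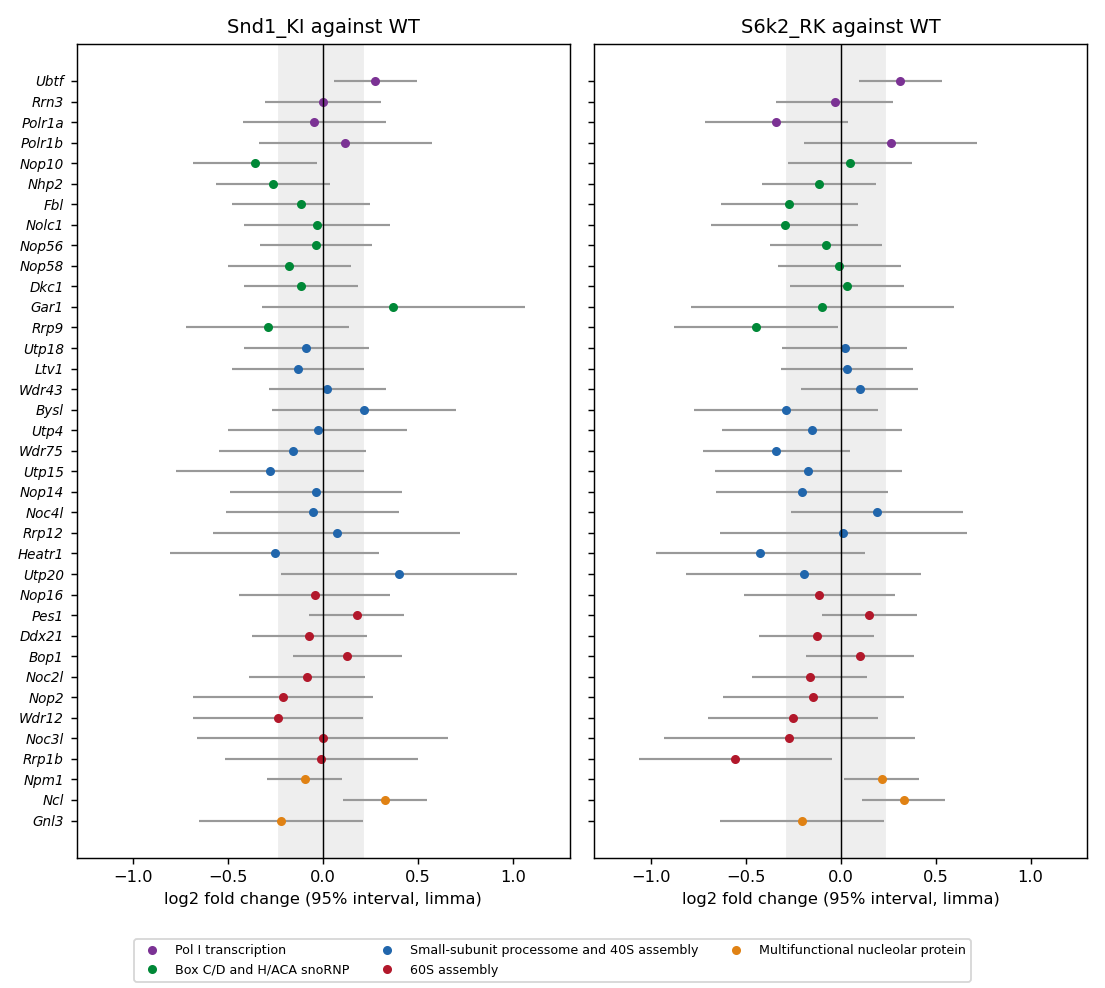
Log2 fold change of each of the 37 genes against WT, in Snd1_KI (left) and S6k2_RK (right); points are limma estimates, lines their 95% intervals, colours the roles, and the grey band the interquartile range of all genes tested. Ncl, at 0.33 in both panels, is the only gene called, and in S6k2_RK only; most intervals cross 0.

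Taken over the whole list, the S6k2_RK differences had a median of -0.11 on the log2 scale, against 0.002 over all genes tested, and 24 of 37 were below 0, against 49.7% of all genes. The medians were 0.12 for polymerase I, where Ubtf and Polr1b were above 0 and Rrn3 and Polr1a below, -0.10 for the snoRNPs, -0.16 for the small-subunit factors and -0.14 for the 60S factors. For the 3 multifunctional proteins the median was 0.22, with Ncl and Npm1 above 0 and Gnl3 below. Nucleolin, nucleophosmin and UBF, the 3 genes with the highest counts, were above 0. Fibrillarin, the methyltransferase of the box C/D particles, measured 189, 184 and 248 in WT, 216, 190 and 164 in Snd1_KI and 152, 219 and 147 in S6k2_RK, and its groups overlapped. For 36 of the 37 the 95% interval stayed within 2-fold, but for only 17 within 1.5-fold.

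**Figure D3:**
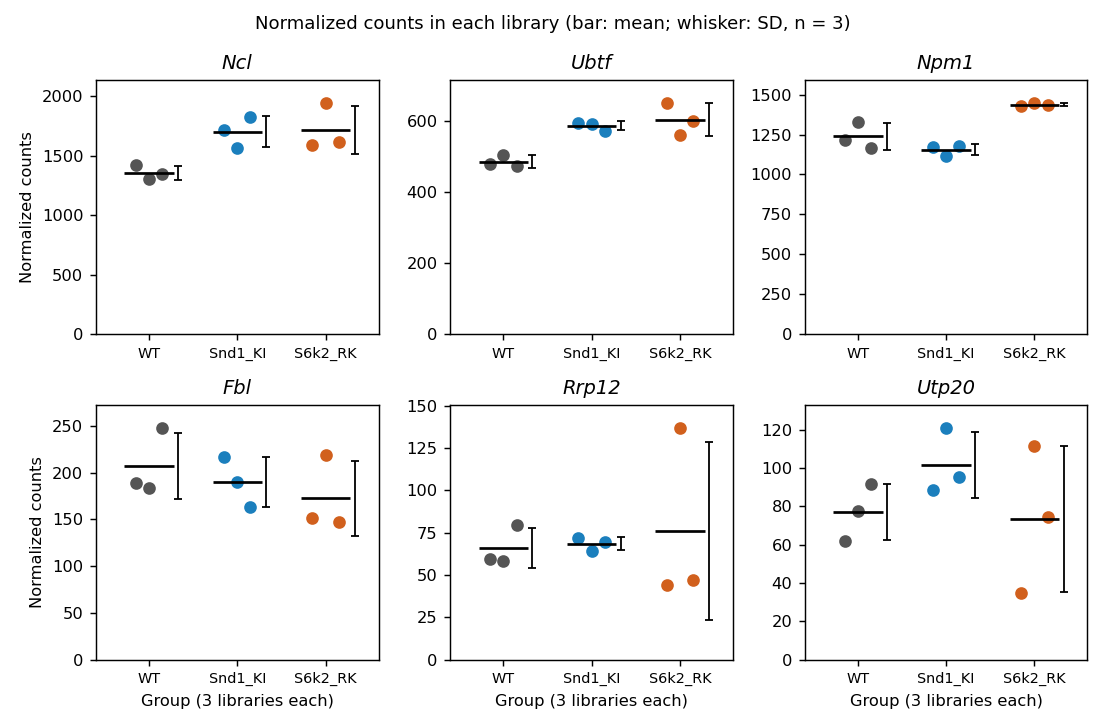
Normalized counts of 6 of the genes in every library; points are libraries, bars are means and whiskers are SD (n = 3). Ncl and Ubtf are higher in all 6 mutant libraries than in any WT library, Npm1 in the S6k2_RK libraries only, and 1 S6k2_RK library stands above its group for Rrp12 and Utp20.

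Between the mutants no gene of the list was called, and 0.117% of all genes tested were (0.0586% in each direction). An unadjusted p of 0.05 was passed by 4 of 37 in limma and in edgeR and by 2 in DESeq2, neither of which called any after adjustment, against 10.1% of all genes in limma (4.32% higher and 5.78% lower); the 4 were 2 higher and 2 lower, chosen for naming after their values were seen. Npm1 was higher in S6k2_RK by 0.31 ± 0.09 on the log2 scale (adjusted p = 0.227, limma), its 3 libraries lying above the Snd1_KI values of 1169, 1117 and 1178. Nop10 measured 148, 162 and 211 in S6k2_RK, above all Snd1_KI libraries, a difference of 0.41 ± 0.16 (adjusted p = 0.366, limma). Rrp1b was -0.54 ± 0.24 (adjusted p = 0.456, limma) with all S6k2_RK libraries below the Snd1_KI values of 47.6, 46.5 and 37.4. Bysl, a 40S assembly factor also known as bystin, was -0.50 ± 0.23 (adjusted p = 0.477, limma), with 74.5, 79.0 and 115 in Snd1_KI and 61.0, 87.2 and 44.5 in S6k2_RK, which overlap. The difference of Bysl was -0.27 without S6k2_RK replicate 3 and -0.30 without Snd1_KI replicate 3, and that of Nop10 was 0.26 without S6k2_RK replicate 3. With Nhp2, 4 genes had groups that did not overlap, 3 higher and 1 lower, against 15.2% of all genes tested (7.81% higher and 7.35% lower). Nucleolin and UBF, for which the S6k2_RK and Snd1_KI libraries overlapped, were named here after their values were seen; their log2 differences were 0.01 (95% interval -0.21 to 0.22) and 0.04 (-0.18 to 0.26). The median of the 37 was -0.03 and 22 of 37 were below 0, against 50.8% of all genes.

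For the 37 genes, the S6k2_RK libraries differed among themselves more than those of the other groups. The 37 genes had a median coefficient of variation of 19.1% in S6k2_RK, against 13.2% in WT and 11.1% in Snd1_KI. In the same order it was 13.5%, 12.5% and 10.4% over 8611 tested genes. Their mean counts lay between the lowest and the highest of the 37, and levels within that range were not matched. Replicate 2 was the highest of the S6k2_RK libraries for 28 of the 37 genes, where it was highest for 35.9% of all genes tested, and replicate 1 was the lowest for 22, against 36.2% of all genes. The median deviation from the group mean was -0.16, 0.23 and -0.01 on the log2 scale in replicates 1 to 3.

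**Figure D4:**
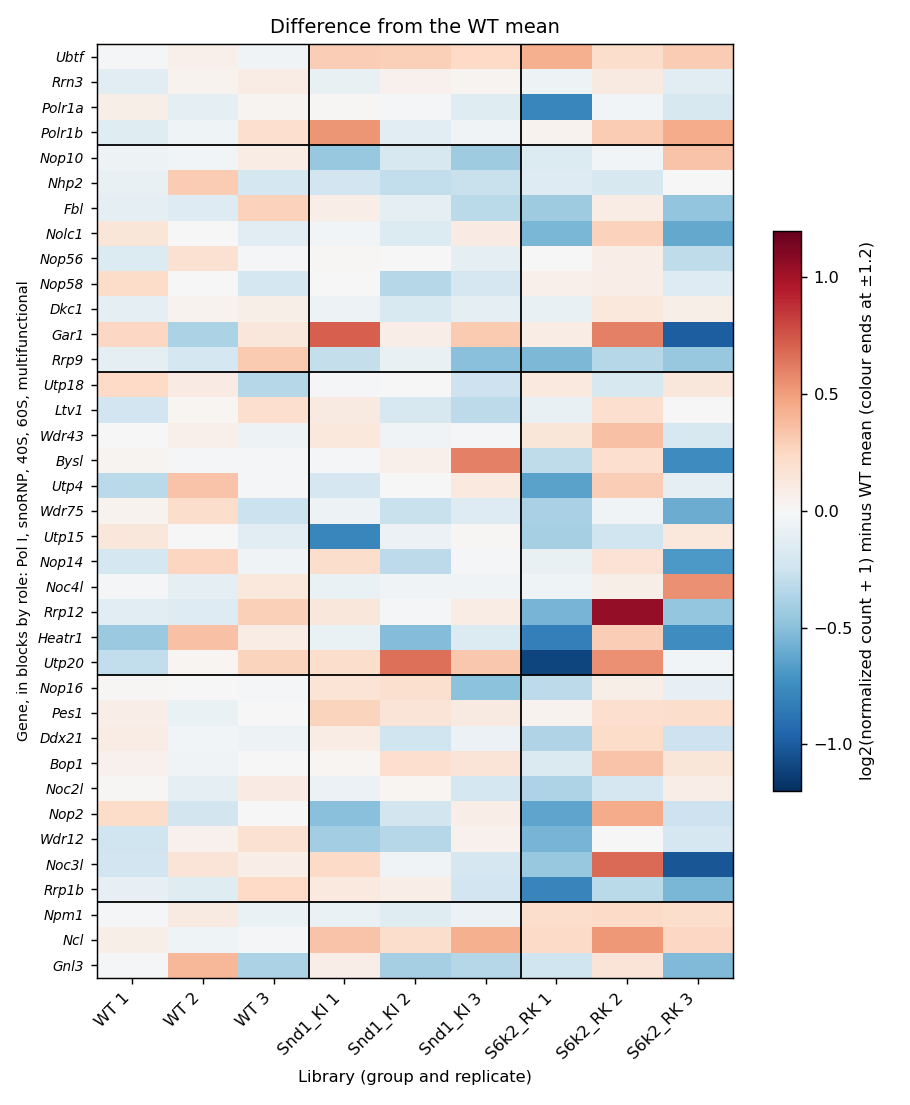
Difference of each of the 37 genes from the WT mean in each of the 9 libraries, as log2 of the normalized count plus 1 on a colour scale that ends at 1.2 either way; rows are grouped by role and columns by group. Ubtf and Ncl are red in all 6 mutant libraries, and the middle S6k2_RK column is redder than the columns beside it.

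The largest coefficients of variation in S6k2_RK were those of Rrp12, Noc3l, Utp20, Gar1 and Heatr1, from 69.5% down to 47.5%. Gar1, with a coding sequence of only 693 bases, measured 43.0, 61.7 and 19.8; the other 4 have longer ones. Rrp12, whose yeast counterpart works in subunit export, measured 59.3, 58.6 and 79.7 in WT and 44.0, 137 and 47.0 in S6k2_RK. Heatr1, which works in polymerase I transcription and in the processome, measured 76.8, 134 and 111 in WT and 59.0, 129 and 61.8 in S6k2_RK. Utp20 measured 62.0, 77.5 and 91.5 in WT and 35.0, 111 and 74.2 in S6k2_RK. In these 3 genes replicate 2 was the highest of its group and replicate 1 the lowest. Noc3l, whose yeast counterpart works in 60S transport, shows the same high library with 41.0, 91.3 and 27.2, although there replicate 3 was lowest. Across the 37 genes Spearman's rho between coding length and deviation was -0.39, 0.42 and -0.15 in S6k2_RK replicates 1, 2 and 3. Over 11638 genes with a coding length it was -0.10, 0.17 and -0.07. In WT replicates 1 to 3, rho over those genes was 0.02, -0.20 and 0.18, and across the 37 it was -0.13, 0.03 and 0.06. In Snd1_KI it was -0.03, -0.04 and 0.06 over those genes, and 0.08, -0.13 and 0.08 across the 37. The genes of 1 library share its depth and RNA, so these are descriptions. Among 18 genes with coding sequences longer than 1968 bases, S6k2_RK replicate 2 was highest in 15 with a median deviation of 0.33. Among the 19 others it was highest in 13 with 0.11. RNA integrity values were not used here, and the part of RNA quality in this spread was not tested.

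**Figure D5:**
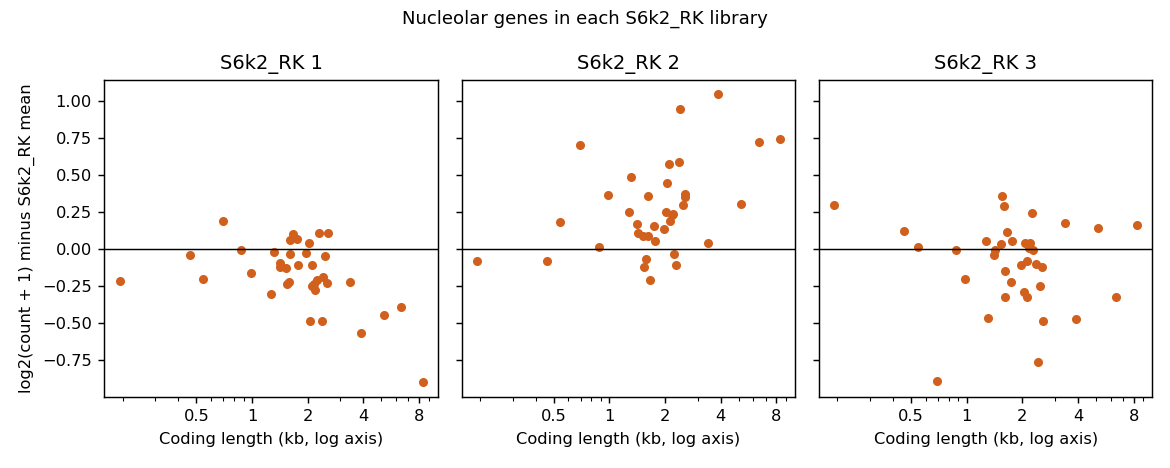
Deviation of each of the 37 genes from its S6k2_RK mean, as log2 of the normalized count plus 1, against coding length in kb on a log axis, with 1 panel per S6k2_RK library. Across the genes Spearman's rho is -0.39 in replicate 1, 0.42 in replicate 2 and -0.15 in replicate 3, with exceptions among the longer genes such as Ubtf, which is above its mean in replicate 1 and below it in replicate 2.

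Without S6k2_RK replicate 2, the comparison of S6k2_RK with WT changed. This library is singled out after it was seen to be the highest of its group for 28 of the 37 genes. Leaving it out lowers the S6k2_RK means of those genes, so calls of lower genes here are descriptions. Nucleolin was no longer called (adjusted p = 0.182, limma), while Nolc1, which associates with snoRNPs, and Heatr1 were called lower. Nolc1 measured 318, 286 and 261 in WT, 281, 256 and 307 in Snd1_KI and 196, 349 and 187 in S6k2_RK, and without the library at 349 its difference from WT was -0.58 ± 0.14 (adjusted p = 0.0148, limma). That of Heatr1 was -0.78 ± 0.23 (adjusted p = 0.0414, limma). The median of the 37 was then -0.21, with 29 below 0, while over all genes it was 0.01, with 49.5% below 0 and 5.46% called lower. The median of the 37 moved the other way to -0.03 without S6k2_RK replicate 1, -0.04 without S6k2_RK replicate 3 and -0.06 without WT replicate 2. It was -0.10 without WT replicate 1 and -0.12 without WT replicate 3, and it stayed at -0.11 without any 1 Snd1_KI library.

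As a share of all normalized counts, the 37 genes took 0.0602% ± 0.00182 in WT. The share was 0.0505% ± 0.00275 in Snd1_KI and 0.0443% ± 0.00540 in S6k2_RK (SD, n = 3 per group). The WT libraries, from 0.0581% to 0.0613%, lay above all mutant libraries, of which the highest was at 0.0530%. The total that the share is taken over differed too: 12769461 to 13238756 normalized counts in WT, 15491337 to 16290582 in Snd1_KI and 16749985 to 20607886 in S6k2_RK, and the sum of acinar markers given above moved with it. If every library is instead set to the same total, the median log2 difference of all genes tested moves to -0.28 in Snd1_KI and -0.51 in S6k2_RK, and that of the 37 genes to -0.33 and -0.63. Against those shifts the 37 genes lie 0.05 and 0.12 lower than all genes, close to their places under the authors' size factors. On that scale 3 of 37 genes (Nhp2, Nop10 and Npm1) were called lower in Snd1_KI, where 13.2% of all genes tested were called lower, and 29 of 37 in S6k2_RK, where 49.8% were.

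Beyond the 37 genes, 144 other tested genes of the pathway were listed, namely 16 of polymerase I, 11 of the snoRNPs, 47 of the small subunit, 59 of the 60S subunit and 11 of the MYC network. In Snd1_KI limma called 1 of the 144, which was lower, against 5.61% of all genes tested. That gene, Polr2k, encodes a small subunit shared by all 3 RNA polymerases and measured 142, 177 and 102 in WT and 83.1, 79.8 and 86.6 in Snd1_KI (log2 fold change -0.71 ± 0.19, adjusted p = 0.0352, limma). Its groups did not overlap, but the call was lost without WT replicate 1 or 2 or without any 1 of the Snd1_KI libraries (adjusted p up to 0.208).

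In S6k2_RK, 3 of the 144 were called higher and 2 lower, against 5.20% and 6.83% of all genes tested; whether the pathway differs from other genes was not tested. Polr1c, a subunit shared by RNA polymerases I and III, rose from 126, 124 and 108 to 212, 157 and 177 (0.60 ± 0.15, adjusted p = 0.0174, limma). Myc, the transcription factor known for driving ribosome production, measured 208, 194 and 190 in WT and 254, 299 and 250 in S6k2_RK (0.44 ± 0.13, adjusted p = 0.0352, limma). In both genes every S6k2_RK library lay above every WT library. Nop53, a 60S factor, rose by 0.31 ± 0.10 (adjusted p = 0.0479, limma), from 712, 672 and 683 to 879, 798 and 888. At equal library totals Polr1c kept 0.08 with an adjusted p of 0.707 (limma), Myc turned to -0.08 and Nop53 to -0.21. Mdn1, the giant AAA ATPase of 60S maturation, measured 89.9, 90.1 and 104 in WT and 36.0, 88.6 and 44.5 in S6k2_RK (-0.84 ± 0.26, adjusted p = 0.0393, limma), with the same high replicate 2 as the long genes above. Mlxipl, the carbohydrate-response factor ChREBP of the extended MYC network, measured 48.0, 44.1 and 44.3 in WT and 26.0, 21.5 and 27.2 in S6k2_RK (-0.85 ± 0.24, adjusted p = 0.0291, limma). Each of these 5 calls ended when any 1 of several libraries was left out, although the direction of each difference held. With libraries left out, the log2 differences ran from 0.48 to 0.70 for Polr1c, 0.35 to 0.48 for Myc and 0.28 to 0.36 for Nop53. Those of Mdn1 ran from -1.22 to -0.58 and those of Mlxipl from -0.91 to -0.75. Leaving out WT replicate 3, S6k2_RK replicate 1 or S6k2_RK replicate 3 ended that of Polr1c (adjusted p up to 0.0575, limma). Without any 1 WT library, Mdn1, Mlxipl and Myc lost theirs, with 0.0952 for Mlxipl without WT replicate 1 (limma). Mdn1 also lost its call without Snd1_KI replicate 2 or S6k2_RK replicate 1 or 3 (adjusted p up to 0.140, limma). For Mlxipl the same held without S6k2_RK replicate 2 or 3 (adjusted p of 0.0888 and 0.0544, limma). Myc also lost its call without Snd1_KI replicate 1 or S6k2_RK replicate 2 or 3 (adjusted p up to 0.132, limma). Nop53 kept its call only without S6k2_RK replicate 2 (otherwise up to 0.152). Between the mutants none of the 144 was called in limma.

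MYC binds the E-box CACGTG, a palindrome that reads the same on both strands, and its presence near the start sites was counted. RefSeq promoters on GRCm38.p6, from 250 bases before to 50 bases after each start, matched 33 of the 37 genes; Bop1, Fbl, Npm1 and Rrp12 were not matched. The motif occurred in 8 of 33 (24.2%: Ltv1, Nop2, Pes1, Rrn3, Utp18, Utp20, Utp4 and Wdr43), in 1100 of 9158 tested protein-coding genes (12.0%) and in 2187 of 27025 genes of the whole promoter table (8.09%). The 250 bases before the start are shown for nucleolin, the gene called in S6k2_RK, which has no such motif there, and for Rrn3, which has 2, with the motif in capitals. They lie at chr1:86359456-86359705 on the minus strand for Ncl and at chr16:13780449-13780698 on the plus strand for Rrn3.
Ncl: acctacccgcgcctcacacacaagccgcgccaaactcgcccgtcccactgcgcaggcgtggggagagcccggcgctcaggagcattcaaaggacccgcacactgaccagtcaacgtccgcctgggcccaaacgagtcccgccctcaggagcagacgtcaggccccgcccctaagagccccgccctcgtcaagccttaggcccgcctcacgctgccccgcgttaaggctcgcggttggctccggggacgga
Rrn3: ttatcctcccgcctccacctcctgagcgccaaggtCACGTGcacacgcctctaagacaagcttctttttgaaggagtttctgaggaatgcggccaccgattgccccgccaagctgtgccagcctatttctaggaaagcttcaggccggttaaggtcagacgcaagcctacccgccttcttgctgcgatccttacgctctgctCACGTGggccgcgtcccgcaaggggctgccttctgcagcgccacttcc
Rrn3, with 2 motifs, measured 121, 138 and 143 in WT, 126, 139 and 137 in Snd1_KI and 128, 144 and 121 in S6k2_RK, and its groups overlapped. The match is a description of the letters in this window only.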

How the data were processed

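RNA of ground whole pancreas was made into polyA, strand-specific libraries and sequenced as pairs of 150 bp, with 40 M pairs stated per sample, per the labels' protocols. The authors deposited 1 table of normalized counts, that is, a signal in which each library's gene counts are divided by its own size factor; the submitters' processing notes name DESeq2, GRCm38 and mm10. The aligner, counter and annotation release are not given in the sources used here. All values were whole multiples of 1 read within 1e-06, a read being worth 0.774 to 1.34 normalized counts, so whole reads were recovered. No library was a copy of another: within groups, chi-square over degrees of freedom was 7.63 to 20.4.

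A total of 11953 genes averaged 10 normalized counts or more. They were tested with limma 3.58.1 (R 4.3.3), with a trend and 1 fit to all 9 libraries, on the log2 scale after adding 1. Calls were two-sided and needed an adjusted p (Benjamini-Hochberg) under 0.05. Fold changes on this scale understate changes of low genes. Each limma p-value rests on the spread between the 3 animals of a group, pooled over all 3 groups. The S6k2_RK spread therefore also enters Snd1_KI against WT. There Ncl had an adjusted p of 0.0354 (limma) with only the groups compared. Counts of the 11953 genes were simulated for S6k2_RK against WT, with the same dispersion (spread beyond that of counting) for every gene. Changes were put only into genes averaging at least 50 normalized counts, a mean that Rrp1b and Gar1 do not reach. Of these changes, 2-fold ones were recovered for 90 of 100 genes and 1.41-fold ones for 13 of 100. Recovery for the 37 genes as a set was not tested, so these rates may be too high for them. Their coefficient of variation in S6k2_RK had a median of 19.1% and reached 69.5%. Over 8611 tested genes with mean counts in the range of the 37, not matched within it, the median was 13.5%. The 37 genes and all lists were chosen with earlier results of these data known. Every member is named; fold changes are given for called members, and for others only where said to be chosen after their values were seen, or where an alternative called them. From each other list up to 3 called genes with the smallest adjusted p were named.

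Alternatives were pseudocounts of 0.5 and 5, no filter, a minimum mean of 50, equal library totals, TMM, fits to only the groups compared, a fit with a replicate block, leaving out each library, and tests of the recovered reads in edgeR 4.0.16 or DESeq2 1.42.0; edgeR without S6k2_RK replicate 1, whose read is worth almost 1, was added after the data were seen. Coding lengths and snoRNAs came from GENCODE M21.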

Additional observations from a re-analysis of the deposited data

How the results depend on the processing

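Nucleolin in S6k2_RK kept its call with pseudocounts of 0.5 and 5, in DESeq2 and without S6k2_RK replicate 1. The count of genes higher in S6k2_RK was 0 with no filter, a minimum mean of 50 (35 of the 37 genes tested), equal totals, TMM, only the groups compared, the replicate block, edgeR, and edgeR without S6k2_RK replicate 1; with libraries left out it ran from 0 to 1. The count lower in S6k2_RK was 29 at equal totals and 0 to 2 with libraries left out, and the count higher in Snd1_KI was 1 (Ncl) with only the groups compared and 0 to 1 with libraries left out, where S6k2_RK replicate 2 gave the 1. Equal totals gave 3 lower in Snd1_KI, where 13.2% of all genes were called lower, and medians of -0.33, -0.63 and -0.27 (S6k2_RK against Snd1_KI for the last). With libraries left out the medians ran from -0.089 to -0.025 in Snd1_KI, from -0.21 to -0.03 in S6k2_RK and from -0.14 to 0.03 between the mutants, above 0 without S6k2_RK replicate 1 or 3. Directions reversed at equal totals for Ubtf in Snd1_KI (-0.011) and, in S6k2_RK, for Ubtf (-0.21), Ncl (-0.19), Npm1 (-0.30), Myc (-0.082) and Nop53 (-0.21). Equal totals move all genes down together; the cause of the other changes was not tested. Same-numbered libraries of different groups correlated from -0.08 to 0.05 in their deviations, so the numbers do not pair them; under the replicate block Ncl in S6k2_RK had an adjusted p of 0.0681 (limma) and no gene of the 37 was called. With 3 animals per group, small changes could be missed.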

Other observations

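Cell-cycle markers summed to 463 to 558 normalized counts in WT, 445 to 472 in Snd1_KI and 401 to 582 in S6k2_RK; both mutants overlapped WT, and limma called 1 of 7 tested lower in Snd1_KI. Duct markers summed to 2160 to 2317 in WT, 2909 to 3113 in Snd1_KI and 2899 to 3365 in S6k2_RK, and limma called 2 of 9 higher in Snd1_KI and 1 of 9 in S6k2_RK. B-cell and plasma-cell markers were called lower for 10 of 12 genes in Snd1_KI and for 12 of 12 in S6k2_RK. Adipocyte markers were called lower for 6 of 9 genes in S6k2_RK. The difference between the mutants is not read from these counts.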
